A study of Mus musculus with 20 samples.

Results

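The genes described here encode chaperones of the endoplasmic reticulum (ER), sensors and transcription factors of ER stress, and machinery that moves proteins into and out of the ER. They are 34 genes listed by name, with earlier results of these data known, among the 39179 Ensembl gene IDs of the count table, and all 34 passed the filter on low counts that left 15254 genes for testing. RNA was sequenced from epididymal fat, the visceral fat pad beside the testis and epididymis, of male C57BL6/J mice. In all, 4 groups had been switched from chow to a high-fat diet 2, 4, 6 or 14 days earlier, and a group kept on chow (day 0) served for comparison. Each of the 5 groups had 4 libraries, described as biological replicates. The labels name no transgene or mutation, and the age of the mice and the fat content of the diet are not given in the sources used here.

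A protein destined for secretion or for a membrane enters the ER through the Sec61 translocon, folds there with the help of chaperones such as Hspa5 (BiP) and of disulfide isomerases, and leaves in vesicles coated by COPII. When folding falls behind, the sensors Ern1 (IRE1), Eif2ak3 (PERK) and Atf6 start the unfolded protein response, which acts through the factors Xbp1, Atf4 and cleaved Atf6 on genes for chaperones and for degradation of misfolded proteins. Fat tissue secretes adipokines and extracellular matrix, and collagen needs its own chaperone, Serpinh1 (HSP47), and large COPII carriers.

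Promoter sequence was available for 29 of the 34 genes (RefSeq, build GRCm38.p6). No entry was at hand for Atf6, Creb3l1, Hyou1, Manf and Sec61a1. The 250 bases before the start were searched for the ER stress response element ERSE, which is CCAAT, any 9 bases and CCACG on either strand. It was found in 8 of the 29 promoters (27.6%), against 18 of 11162 tested genes with a promoter entry (0.161%) and 35 of 27025 genes in all (0.130%). The larger counts include the genes described here, for this element and those below. As the 34 genes were listed by name for ER roles, their share is a description and not a test. The windows that follow come from these 8 promoters, with 10 flanking bases on each side and the element in capitals, read along the gene. They are shown because the same element precedes genes that rose on day 4 and genes that did not pass the test. Where the element lies on the opposite strand, it reads as CGTGG, 9 bases and ATTGG.
Hspa5 (chr2:34772015-34772053, plus strand): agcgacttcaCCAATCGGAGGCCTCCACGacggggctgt
Calr (chr8:84847065-84847103, minus strand): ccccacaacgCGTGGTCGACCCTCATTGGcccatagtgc
Syvn1 (chr19:6046522-6046560, plus strand): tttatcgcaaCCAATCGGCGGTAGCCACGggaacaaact
Hsp90b1 (chr10:86705523-86705666, minus strand): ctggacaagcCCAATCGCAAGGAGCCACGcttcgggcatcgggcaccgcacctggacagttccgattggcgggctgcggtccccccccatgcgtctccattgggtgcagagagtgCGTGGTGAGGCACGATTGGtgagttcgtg
Canx (chr11:50325790-50325828, minus strand): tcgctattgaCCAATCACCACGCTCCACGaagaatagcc
Dnajc3 (chr14:118937817-118937855, plus strand): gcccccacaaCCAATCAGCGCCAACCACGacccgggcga
Pdia6 (chr12:17266481-17266519, plus strand): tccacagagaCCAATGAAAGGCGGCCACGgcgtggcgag
Creld2 (chr15:88819510-88819548, plus strand): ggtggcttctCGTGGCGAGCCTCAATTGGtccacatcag

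Hsp90b1 held the element at both ends of its longer window, once on each strand. The related ERSE-II, which is ATTGG, any 1 base and CCACG on either strand, was found in Herpud1 alone among the 29, against 0.0538% of tested genes. Its window is printed, with the element in capitals, because Herpud1 carries it in place of ERSE.
Herpud1 (chr8:94386367-94386397, plus strand): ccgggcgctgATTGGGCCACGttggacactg

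The core of the Xbp1 and Atf6 site UPRE, TGACGTG on either strand, was found in the promoters of Hspa5 and Sec24d (6.90% of 29) and in 2.59% of tested genes. TGATGNAA on either strand, the element bound by Atf4 with C/EBP partners, was found in Herpud1 (3.45% of 29) and in 2.43% of tested genes. A match describes these letters in this window and is no measure of binding.

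Total counts per library ranged from 1916829 (day 2 replicate 1) to 38832429 (a chow library), a 20.3-fold span. The lowest count of any of the 34 genes in a library was 8, for Sdf2l1 in day 2 replicate 1. Adipocyte markers identified the tissue, with 37871 to 65658 CPM summed over 10 genes in the chow libraries (CPM, counts scaled to the TMM-adjusted library size). Chow replicate 4 stood apart by markers of epididymis and ductal epithelium, which summed to 217 CPM in it, against 0.640 to 0.930 CPM in chow replicates 1, 2 and 3. The sum was at most 9.17 CPM in any library of another group. In chow replicate 4 it was mostly Cuzd1, Cdh16, Epcam and Pax8, at 80.1, 69.0, 41.2 and 22.9 CPM. Defb29, Adam7 and Rnase10 were at 2.21, 1.46 and 0.31 CPM there, Lcn8 and Crisp1 at 0.03 CPM each, and Lcn5 at 0. Day 2 replicate 1 held 123 CPM of pancreatic acinar markers, against at most 33.2 CPM in any library of another group. Dividing-cell markers summed to 117 CPM in day 4 replicate 1, against 586 to 715 CPM in the other day 4 libraries, and to 429 CPM in day 6 replicate 4, against 93.6 to 159.5 CPM in the other day 6 libraries. Counts without chow replicate 4 and day 2 replicate 1, and without all 4 of these libraries, were added after seeing the data.

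More of the 34 genes differed from chow on day 4 of high-fat feeding than on day 2, 6 or 14, as did more of all tested genes. The calls were 15 of the 34 on day 4 and 1, 3 and 2 on days 2, 6 and 14. Over all 15254 tested genes they were 5381 on day 4 and 670, 527 and 180 on days 2, 6 and 14. The comparison asked which genes had changed after 4 days, and 14 genes were higher and 1, Ern1, was lower at an adjusted p under 0.05 (edgeR quasi-likelihood test, Benjamini-Hochberg adjustment over 15254 genes). The genes that rose were the collagen chaperone Serpinh1, the COPII coat genes Sec23a and Sec24d, the translocon genes Tram2, Sec61a1 and Sec61b, the chaperones Hspa5 and Calr, the co-chaperone Dnajb11, the disulfide isomerase P4hb, the secreted protein Manf, the ubiquitin ligase Syvn1, and the factors Atf4 and Creb3l1. Of all tested genes, 18% were higher and 17.3% lower on day 4. The median log2 change was 0.27 over the 34 genes and -0.02 over all tested genes, and 26 of the 34 changes were positive, against 48.3% of all tested genes. In 14 of the 34 genes every day 4 library lay above every chow library, as in 15.2% of all tested genes, and in 1 gene every library lay below, as in 15%. In whole tissue, fewer cells of a type and less RNA per cell cannot be told apart.

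With scaling by library size only, the medians were 0.15 over the 34 genes and -0.13 over all tested genes, and the split was 8 higher and 3 lower. The calls of Calr, Manf, P4hb, Sec61a1, Sec61b and Syvn1 were lost under that scaling, and Pdia4 and Xbp1 were called lower. Without chow replicate 4 and day 2 replicate 1, 11 genes were higher and 3 lower. Without these and without day 4 replicate 1 and day 6 replicate 4, 13 were higher and 2 lower, and the calls of Atf4, Calr and Sec61b were lost. In fits that each left out 1 of the 8 libraries compared, 12 of the 15 calls held in all 8. Calr lost its call without chow replicate 4 or day 4 replicate 2. P4hb lost it without chow replicate 3, chow replicate 4 or day 4 replicate 4. Sec61b lost it in 6 of the 8 fits, all except those without chow replicate 1 or day 4 replicate 1. An overlap of exons with another gene of the table was found in GENCODE's mouse annotation for 9 of the 34 genes, among them Manf, Syvn1 and Sec23a, and reads shared in that way cannot be told apart.

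**Figure D1:**
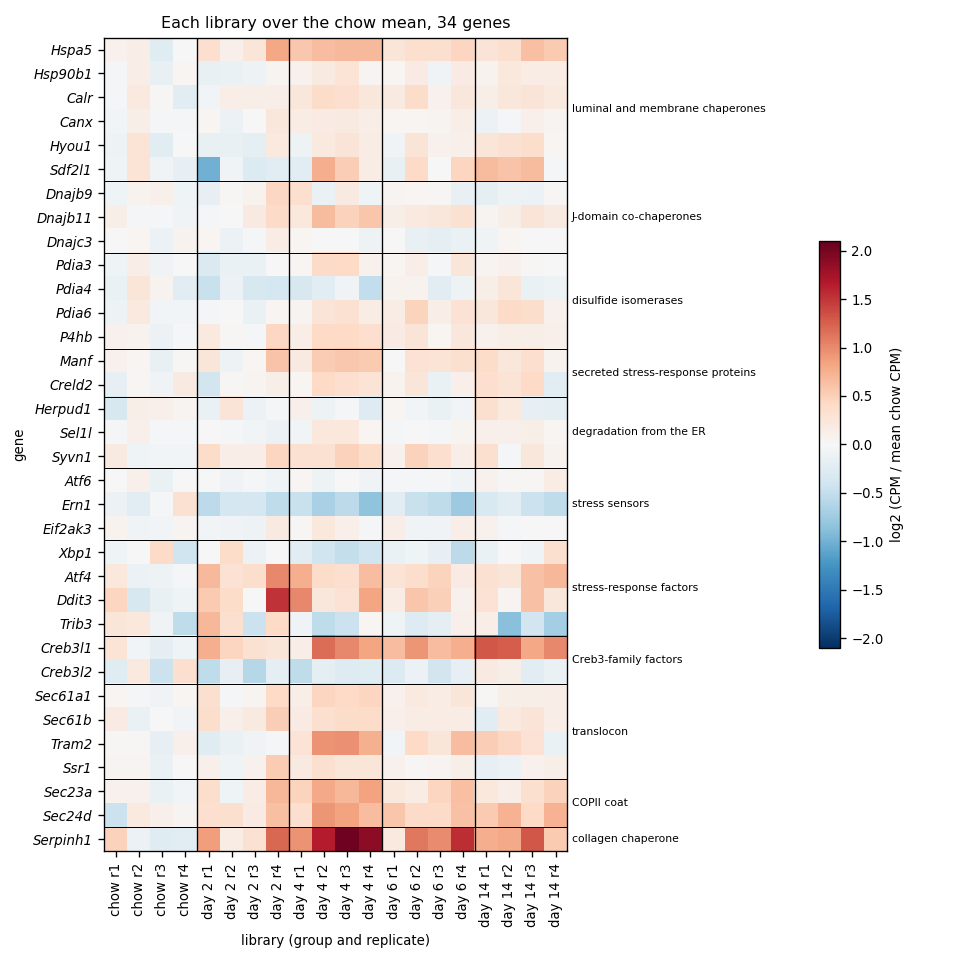
Log2 ratio of each library's CPM to the mean chow CPM (colour) for the 34 genes (rows, by role) in the 20 libraries (columns, chow then days 2, 4, 6 and 14). The darkest cells are Serpinh1 in day 4 replicates 2, 3 and 4, with 1257, 1655 and 1477 CPM, while Ern1 is below the chow mean in all 16 high-fat libraries.

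Serpinh1, which binds procollagen in the ER and travels with it to the Golgi, had the largest change of the 34 genes. It measured 764, 1257, 1655 and 1477 CPM on day 4, against 557, 367, 335 and 339.5 CPM on chow. Every day 4 library lay above every chow library, with day 4 replicate 1 the lowest of its group and chow replicate 1 the highest of its own. The change was 1.69 ± 0.30 (log2 scale, SE; adjusted p = 0.00123 by the edgeR quasi-likelihood test), and group means were 1288 ± 385 CPM on day 4 and 399.6 ± 106 CPM on chow (SD, n = 4 each). On the other days it measured 735, 443, 499 and 919 CPM on day 2, 463, 865, 794 and 1168 CPM on day 6 and 679, 694, 984 and 584 CPM on day 14, and the changes from chow did not pass the test: 0.70 ± 0.29 on day 2, 1.04 ± 0.29 on day 6 and 0.88 ± 0.29 on day 14 (adjusted p = 0.144, 0.0550 and 0.118 by the edgeR quasi-likelihood test). Day 2 and day 6 overlapped with chow, whereas every day 14 library lay above every chow library. Per kilobase of exon it was also the most abundant of the 34 on chow, at 164 ± 43.3 CPM per kb, ahead of P4hb at 147 ± 9.96 and Calr at 139 ± 16.8 CPM per kb (SD, n = 4).

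Both COPII coat genes rose on day 4. Sec23a, part of the inner coat, measured 70.4, 87.8, 82.6 and 90.7 CPM on day 4, against 54.03, 54.1, 45.8 and 48.8 CPM on chow, with no overlap. Its change was 0.71 ± 0.14 (log2 scale, SE; adjusted p = 0.00188 by the edgeR quasi-likelihood test). Its other values were 65.8, 47.6, 56.2 and 81.8 CPM on day 2, 59.2, 56.2, 68.9 and 78.8 CPM on day 6 and 58.8, 55.7, 64.2 and 70.7 CPM on day 14, where day 2 overlapped with chow, days 6 and 14 did not, and none of the 3 passed the test. Sec24d, a cargo-binding subunit whose loss in zebrafish and mammals impairs collagen secretion, measured 78.1, 116, 109.9 and 95.8 CPM on day 4, against 44.8, 70.6, 65.3 and 63.3 CPM on chow. Every day 4 library was above every chow library, and chow replicate 1 was the lowest of all. The change was 0.71 ± 0.14 (log2 scale, SE; adjusted p = 0.00173 by the edgeR quasi-likelihood test). On the other days Sec24d measured 77.7, 76.7, 68.8 and 94.2 CPM on day 2, 90.8, 80.2, 80.7 and 93.3 CPM on day 6 and 89.6, 101, 81.3 and 101 CPM on day 14, and it was called on day 6 and day 14 as well, as given below.

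Of the 4 translocon genes, 3 rose, and of these Tram2 alone kept its call with scaling by library size only. Tram2, a translocating-chain protein associated with collagen synthesis, measured 26.1, 40.98, 41.7 and 35.8 CPM on day 4, against 21.8, 21.6, 18.98 and 22.9 CPM on chow. All day 4 libraries were above all chow libraries, day 4 replicate 1 by the least. Tram2 rose by 0.75 ± 0.16 (log2 scale, SE; adjusted p = 0.00261 by the edgeR quasi-likelihood test). Its values were 17.8, 19.5, 20.2 and 20.9 CPM on day 2, 20.6, 28.6, 25.5 and 33.4 CPM on day 6 and 30.5, 28.9, 26.2 and 19.4 CPM on day 14, so that day 2 lay among or below the chow libraries. Sec61a1, the channel subunit, measured 139.7, 175, 171 and 174 CPM on day 4, against 131, 125, 121 and 132 CPM on chow, without overlap, and rose by 0.37 ± 0.09 (log2 scale, SE; adjusted p = 0.00632 by the edgeR quasi-likelihood test). It measured 162, 126, 133 and 171 CPM on day 2, 136, 147, 141 and 152 CPM on day 6 and 130.0, 138, 139 and 139.9 CPM on day 14, where day 6 was above chow without overlap and days 2 and 14 overlapped with it. Sec61b, a small channel subunit, measured 34.97, 39.1, 40.4 and 40.6 CPM on day 4, against 35.1, 28.2, 30.9 and 29.9 CPM on chow. The lowest day 4 library, replicate 1, was just under the highest chow library, replicate 1, and the change was 0.32 ± 0.11 (log2 scale, SE; adjusted p = 0.0278 by the edgeR quasi-likelihood test). Its other values were 39.9, 33.3, 35.5 and 44.4 CPM on day 2, 33.2, 34.6, 34.7 and 34.6 CPM on day 6 and 26.5, 35.6, 37.3 and 34.4 CPM on day 14, and none of these days passed the test. Ssr1, a subunit of the translocon-associated protein complex, measured 143, 158, 149.8 and 149 CPM on day 4, against 131, 129.8, 114 and 127 CPM on chow, with no overlap, yet its change of 0.26 ± 0.10 (log2 scale, SE; adjusted p = 0.0608 by the edgeR quasi-likelihood test) missed the threshold. Its other values were 135, 117, 133 and 181 CPM on day 2, 133, 128, 131 and 137 CPM on day 6 and 112, 115, 134 and 137 CPM on day 14, which overlapped with chow on each day.

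**Figure D2:**
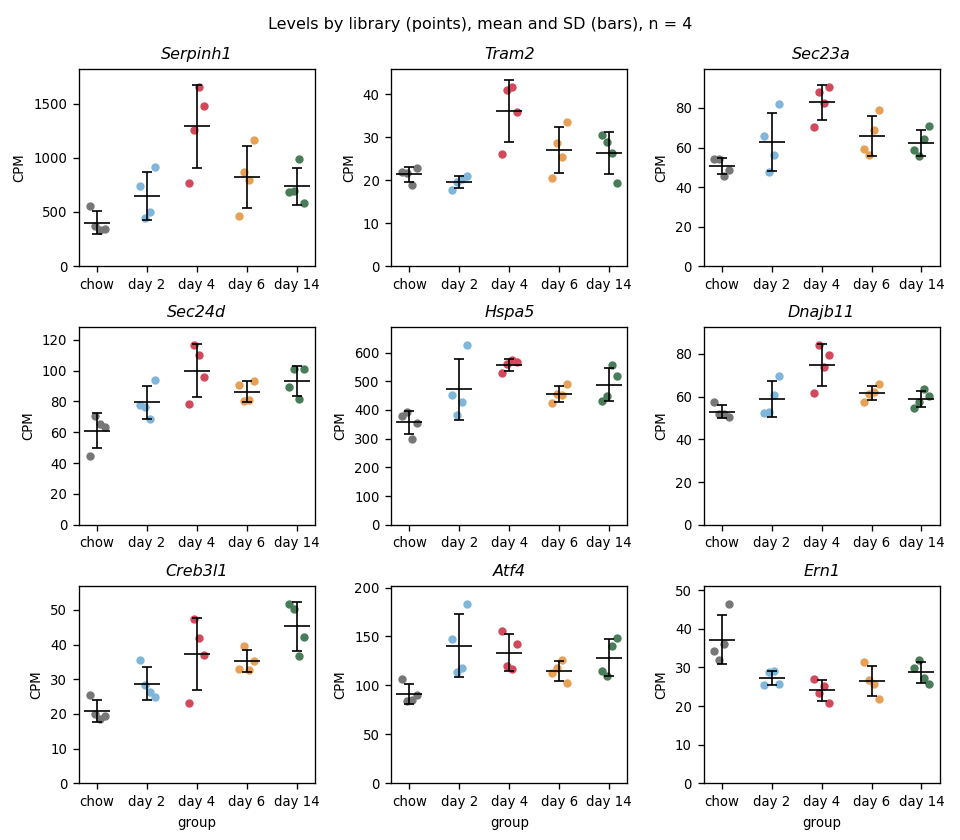
CPM of 9 genes (panels) in each library (points) by group (x axis), with the mean (long line) and SD (bars), n = 4. Serpinh1, Tram2, Sec23a, Sec24d, Hspa5 and Dnajb11 have their highest mean on day 4, Creb3l1 on day 14 and Atf4 on day 2, and Ern1 has its highest mean on chow.

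Among the 6 luminal and membrane chaperones, Hspa5 and Calr rose on day 4, Calr with no call under scaling by library size only, and the other 4 did not pass the test. Hspa5, the ER member of the Hsp70 family, measured 528, 559.8, 573 and 569 CPM on day 4, against 379, 394, 299.5 and 354 CPM on chow. The groups did not overlap, and the 4 day 4 values lay close together. Its change was 0.64 ± 0.13 (log2 scale, SE; adjusted p = 0.00200 by the edgeR quasi-likelihood test). On the other days it measured 454, 383, 427 and 626 CPM on day 2, 425, 456, 452 and 490.1 CPM on day 6 and 432, 448, 555 and 520.2 CPM on day 14, with day 2 replicate 4 the highest library of all. Day 2 overlapped with chow, while days 6 and 14 lay above it without passing the test. Calr, a calcium-binding lectin chaperone, measured 469, 523, 509 and 474 CPM on day 4, against 393, 459, 406 and 341 CPM on chow. Its day 4 libraries were all above the chow libraries, by a small margin over chow replicate 2, and it rose by 0.30 ± 0.09 (log2 scale, SE; adjusted p = 0.0186 by the edgeR quasi-likelihood test). Its other values were 382, 440.5, 436 and 439 CPM on day 2, 454, 521, 426 and 473 CPM on day 6 and 436, 472, 483 and 463 CPM on day 14, overlapping with chow on each day.

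Canx, the membrane-bound lectin partner of Calr, measured 251, 285, 257 and 256 CPM on chow, 270.3, 242, 263 and 309 CPM on day 2, 292, 295, 298 and 288 CPM on day 4, 269.9, 270.2, 273 and 289 CPM on day 6 and 239.7, 258, 282 and 273 CPM on day 14. Day 4 lay above chow without overlap, but the change of 0.16 ± 0.08 (log2 scale, SE; adjusted p = 0.119 by the edgeR quasi-likelihood test) did not pass the test. Hsp90b1, the ER member of the Hsp90 family, measured 286, 325, 263 and 304 CPM on chow, 264, 268, 274 and 307 CPM on day 2, 314, 334, 358 and 306 CPM on day 4, 302, 333, 279.6 and 332 CPM on day 6 and 309, 343, 329 and 329.6 CPM on day 14. Its day 4 and chow libraries overlapped and the change was 0.15 ± 0.09 (log2 scale, SE; adjusted p = 0.170 by the edgeR quasi-likelihood test). Hyou1, a large Hsp70-like exchange factor for Hspa5, had a change of 0.14 ± 0.12, and Sdf2l1, a partner of Hspa5 complexes, of 0.33 ± 0.22 (adjusted p = 0.371 and 0.247 by the edgeR quasi-likelihood test). Group means of Sdf2l1 ran from 6.75 CPM on day 2 to 12.2 CPM on day 14, the lowest counts among the chaperones.

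The J-domain co-chaperones, which deliver substrates to Hspa5 and start its ATP cycle, included a single gene that passed the test on day 4. Dnajb11 measured 61.6, 84.1, 73.9 and 79.6 CPM on day 4, against 57.5, 52.1, 51.9 and 50.5 CPM on chow. There was no overlap, and it rose by 0.49 ± 0.10 (log2 scale, SE; adjusted p = 0.00190 by the edgeR quasi-likelihood test). On the other days it measured 52.3, 52.6, 60.7 and 69.8 CPM on day 2, 57.5, 61.4, 62.2 and 65.9 CPM on day 6 and 54.9, 57.5, 63.6 and 60.3 CPM on day 14, with means between those of chow and day 4. Dnajc3, which also inhibits the kinase Eif2ak3, measured 146, 150.1, 135 and 153 CPM on chow, 150.0, 133, 143 and 162 CPM on day 2, 150.0, 146, 147 and 135 CPM on day 4, 147, 132, 129 and 132 CPM on day 6 and 137, 149.6, 145 and 147 CPM on day 14. On day 4 Dnajc3 had a change of -0.01 ± 0.07 (log2 scale, SE; adjusted p = 0.909 by the edgeR quasi-likelihood test). Dnajb9 measured 36.3, 40.9, 41.6 and 36.2 CPM on chow, 34.5, 39.5, 40.7 and 52.6 CPM on day 2, 49.4, 35.1, 43.9 and 36.5 CPM on day 4, 40.2, 39.8, 39.6 and 34.9 CPM on day 6 and 33.8, 36.2, 35.7 and 39.3 CPM on day 14. On day 4 Dnajb9 had a change of 0.09 ± 0.12 (log2 scale, SE; adjusted p = 0.550 by the edgeR quasi-likelihood test). Both overlapped with chow on every day.

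Of the 4 disulfide isomerases, which form and rearrange disulfide bonds, P4hb alone rose on day 4, a call lost with scaling by library size only. P4hb, also the beta subunit of the collagen prolyl 4-hydroxylase, measured 463, 560.4, 564 and 538 CPM on day 4, against 448, 441, 387 and 407 CPM on chow. Day 4 replicate 1 was the closest to chow and there was no overlap. It rose by 0.34 ± 0.10 (log2 scale, SE; adjusted p = 0.0161 by the edgeR quasi-likelihood test) and on the other days measured 484, 426, 411 and 566 CPM on day 2, 474, 507, 435 and 498 CPM on day 6 and 447, 458, 459.6 and 454 CPM on day 14. Pdia3, which folds glycoproteins with Calr and Canx, measured 255, 300.0, 259 and 272 CPM on chow, 219, 247, 245 and 271 CPM on day 2, 278, 359, 365 and 288 CPM on day 4, 278, 299, 264 and 322 CPM on day 6 and 282, 289, 277 and 273 CPM on day 14. Day 4 overlapped with chow, and the change of 0.25 ± 0.10 (log2 scale, SE; adjusted p = 0.0589 by the edgeR quasi-likelihood test) missed the threshold. Pdia4 measured 99.7, 131, 116 and 93.04 CPM on chow, 79.3, 101, 86.7 and 85.6 CPM on day 2, 87.2, 93.7, 105 and 76.6 CPM on day 4, 115, 116, 93.4 and 102 CPM on day 6 and 120.5, 131, 99.9 and 103 CPM on day 14. Its day 4 change of -0.28 ± 0.12 (log2 scale, SE; adjusted p = 0.0807 by the edgeR quasi-likelihood test) was negative. Pdia6 measured 149, 184, 154 and 153 CPM on chow, 155.93, 161, 146 and 164 CPM on day 2, 167, 192, 199 and 178 CPM on day 4, 178, 221, 177 and 199 CPM on day 6 and 188, 212, 208 and 171 CPM on day 14. On day 4 Pdia6 had a change of 0.20 ± 0.10 (log2 scale, SE; adjusted p = 0.107 by the edgeR quasi-likelihood test). Day 4 libraries of both overlapped with chow.

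Manf, a secreted protein that resides in the ER with Hspa5, measured 36.9, 47.3, 48.4 and 47.5 CPM on day 4, against 34.5, 33.6, 29.2 and 32.97 CPM on chow. Day 4 replicate 1 was well below the other 3 libraries of its day, though above all chow libraries. Manf rose by 0.46 ± 0.13 (log2 scale, SE; adjusted p = 0.0114 by the edgeR quasi-likelihood test), and on the other days measured 38.8, 30.2, 33.5 and 49.2 CPM on day 2, 32.9, 40.4, 39.8 and 41.3 CPM on day 6 and 42.4, 38.4, 41.6 and 34.4 CPM on day 14. Creld2, likewise a secreted protein of the stress response, measured 15.1, 17.3, 16.2 and 19.3 CPM on chow, 12.9, 17.3, 17.7 and 18.5 CPM on day 2, 17.5, 22.7, 21.7 and 20.8 CPM on day 4, 17.8, 20.2, 15.3 and 18.2 CPM on day 6 and 21.6, 20.8, 22.7 and 14.6 CPM on day 14. On day 4 Creld2 had a change of 0.27 ± 0.13 (log2 scale, SE; adjusted p = 0.119 by the edgeR quasi-likelihood test).

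In the degradation pathway, Syvn1, the ubiquitin ligase Hrd1, measured 95.95, 95.4, 107 and 100.4 CPM on day 4, against 87.8, 72.1, 73.5 and 73.9 CPM on chow. The groups did not overlap and Syvn1 rose by 0.38 ± 0.11 (log2 scale, SE; adjusted p = 0.0119 by the edgeR quasi-likelihood test). Its other values were 101, 84.9, 84.3 and 105 CPM on day 2, 81.5, 108, 98.4 and 84.3 CPM on day 6 and 96.6, 75.4, 91.1 and 80.8 CPM on day 14. Its adaptor Sel1l measured 158, 174, 158 and 158 CPM on chow, 163, 157, 155.67 and 149 CPM on day 2, 156.23, 188, 188 and 166 CPM on day 4, 159.8, 161, 159 and 168 CPM on day 6 and 175, 174, 177 and 167 CPM on day 14. Its day 4 change of 0.11 ± 0.07 (log2 scale, SE; adjusted p = 0.217 by the edgeR quasi-likelihood test) did not pass the test. Herpud1, which recruits further components to Hrd1, measured 45.8, 63.4, 62.4 and 60.6 CPM on chow, 52.9, 70.4, 53.5 and 56.3 CPM on day 2, 62.4, 53.8, 57.04 and 48.1 CPM on day 4, 59.8, 55.5, 52.6 and 56.1 CPM on day 6 and 73.6, 67.1, 51.8 and 50.5 CPM on day 14. On day 4 Herpud1 had a change of -0.07 ± 0.13 (log2 scale, SE; adjusted p = 0.712 by the edgeR quasi-likelihood test). The ligase gene alone of the 3 differed from chow past the threshold, and with scaling by library size only none did.

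Ern1 was the single gene of the 34 that fell on day 4. This sensor kinase and endonuclease splices the Xbp1 message. It measured 27.02, 23.3, 25.3 and 20.7 CPM on day 4, against 34.3, 31.97, 36.04 and 46.5 CPM on chow. All day 4 libraries lay below all chow libraries, and chow replicate 4 was the highest. Ern1 fell by 0.63 ± 0.13 on the log2 scale (SE; adjusted p = 0.00186 by the edgeR quasi-likelihood test). On the other days it measured 25.4, 28.8, 28.99 and 25.8 CPM on day 2, 31.4, 26.8, 25.8 and 21.9 CPM on day 6 and 29.9, 32.1, 27.4 and 25.8 CPM on day 14, and days 2 and 6 also lay below chow without overlap. Eif2ak3, the kinase that represses translation and favours Atf4 synthesis, measured 35.9, 32.3, 32.7 and 35.4 CPM on chow, 32.9, 32.4, 31.5 and 38.8 CPM on day 2, 34.8, 39.9, 36.8 and 32.95 CPM on day 4, 37.6, 32.3, 32.6 and 37.3 CPM on day 6 and 36.4, 33.2, 33.97 and 34.2 CPM on day 14. On day 4 Eif2ak3 had a change of 0.08 ± 0.10 (log2 scale, SE; adjusted p = 0.581 by the edgeR quasi-likelihood test). Atf6, whose cleaved form enters the nucleus, measured 74.6, 80.2, 67.4 and 74.1 CPM on chow, 73.9, 70.8, 72.9 and 69.9 CPM on day 2, 76.3, 68.9, 73.9 and 70.3 CPM on day 4, 72.3, 72.8, 71.6 and 70.1 CPM on day 6 and 78.8, 75.6, 75.4 and 82.1 CPM on day 14. On day 4 Atf6 had a change of -0.03 ± 0.06 (log2 scale, SE; adjusted p = 0.718 by the edgeR quasi-likelihood test). Both overlapped with chow on every day.

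Atf4, the factor downstream of Eif2ak3 and of amino acid sensing, measured 107, 84.5, 85.2 and 89.9 CPM on chow, 147, 114, 118 and 183 CPM on day 2, 155, 119.6, 116 and 143 CPM on day 4, 112, 118, 126 and 103 CPM on day 6 and 115, 109.8, 140.0 and 148 CPM on day 14. All day 2 and all day 4 libraries were above all chow libraries, while day 6 overlapped with chow replicate 1. It rose on day 4 by 0.55 ± 0.14 (log2 scale, SE; adjusted p = 0.00787 by the edgeR quasi-likelihood test), a call lost when chow replicate 4, day 2 replicate 1, day 4 replicate 1 and day 6 replicate 4 were left out together. Ddit3 (CHOP), a target of Atf4, measured 25.2, 14.8, 16.7 and 17.5 CPM on chow, 26.98, 24.1, 18.7 and 53.3 CPM on day 2, 37.4, 21.9, 22.9 and 33.02 CPM on day 4, 20.7, 27.7, 26.2 and 19.8 CPM on day 6 and 22.96, 19.2, 28.5 and 21.8 CPM on day 14. Its day 4 change of 0.66 ± 0.27 (log2 scale, SE; adjusted p = 0.0611 by the edgeR quasi-likelihood test) missed the threshold. The highest Ddit3 value came from day 2 replicate 4, and each high-fat day overlapped with chow. Xbp1 measured 211, 224, 297 and 168 CPM on chow, 223, 295, 207 and 225 CPM on day 2, 194, 169, 159.8 and 168 CPM on day 4, 204, 210.3, 200.5 and 153 CPM on day 6 and 205, 226, 215 and 283 CPM on day 14. On day 4 Xbp1 had a change of -0.38 ± 0.16 (log2 scale, SE; adjusted p = 0.0619 by the edgeR quasi-likelihood test). Counts per gene do not tell spliced Xbp1 from unspliced, nor the processing of Atf6. Trib3, a pseudokinase that restrains Atf4, had a change of -0.19 ± 0.25 (log2 scale, SE; adjusted p = 0.582 by the edgeR quasi-likelihood test) on day 4.

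Creb3l1 (OASIS), a membrane-bound factor of the Atf6 type that drives secretory and collagen genes in mouse bone, measured 25.5, 20.1, 18.4 and 19.5 CPM on chow, 35.6, 28.4, 26.2 and 24.8 CPM on day 2, 23.1, 47.3, 41.9 and 36.9 CPM on day 4, 32.9, 39.6, 32.7 and 35.4 CPM on day 6 and 51.7, 50.4, 36.7 and 42.1 CPM on day 14. Day 4 replicate 1 lay below chow replicate 1, so that day 4 overlapped with chow, whereas every day 6 and every day 14 library lay above every chow library. The change on day 4 was 0.82 ± 0.18 (log2 scale, SE; adjusted p = 0.00276 by the edgeR quasi-likelihood test). Its relative Creb3l2, which in mouse cartilage acts on Sec23a, measured 76.8, 105, 66.9 and 117 CPM on chow, 63.1, 81.5, 60.7 and 80.2 CPM on day 2, 63.1, 80.1, 75.7 and 76.95 CPM on day 4, 74.9, 83.98, 69.9 and 81.5 CPM on day 6 and 105, 99.2, 78.2 and 83.2 CPM on day 14. On day 4 Creb3l2 had a change of -0.31 ± 0.15 (log2 scale, SE; adjusted p = 0.124 by the edgeR quasi-likelihood test). Creb3l2 libraries of every high-fat day overlapped with chow.

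Of the 8 genes with ERSE in the windows printed above, Hspa5, Calr and Syvn1 rose on day 4, Hspa5 alone of them with scaling by library size only. Hsp90b1, Canx, Dnajc3, Pdia6 and Creld2 did not pass the test, and their log2 changes ran from -0.01 for Dnajc3 to 0.27 for Creld2. On that day 14 of the 34 genes and 18% of all tested genes were higher. Whether the element had a part in the changes was not tested. Sec24d, with the UPRE core in its promoter, rose, and Herpud1, with ERSE-II and the Atf4-type element, did not.

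The other high-fat days were each compared with the same 4 chow libraries, so the comparisons are not independent of each other. They asked whether a difference was already there on day 2 and whether it was there on days 6 and 14. On day 2, 1 gene was higher and none lower, against 2.43% and 1.96% of all tested genes, and the median log2 change was 0.08 against -0.03 over all tested genes. Atf4 rose by 0.61 ± 0.14 (log2 scale, SE; adjusted p = 0.0266 by the edgeR quasi-likelihood test), a call that was lost in 5 of 8 fits with 1 library left out, those without chow replicate 2, 3 or 4 or without day 2 replicate 1 or 4. At an unadjusted p under 0.05 there were 13 of the 34 genes and 3943 of all 15254 tested genes. On day 6, 2 genes were higher and 1 lower, against 1.99% and 1.46%, with a median log2 change of 0.12 against -0.01. Creb3l1 rose by 0.75 ± 0.17 (log2 scale, SE; adjusted p = 0.0332 by the edgeR quasi-likelihood test), Sec24d rose by 0.50 ± 0.14 and Ern1 fell by 0.49 ± 0.12 on the log2 scale (SE; adjusted p = 0.0499 and 0.0431 by the edgeR quasi-likelihood test). None of these 3 was called without chow replicate 3, chow replicate 4, or day 6 replicate 2, 3 or 4, and the Sec24d call was also lost without chow replicate 1 or day 6 replicate 1. Serpinh1 was called higher on day 6 without chow replicate 1 or without day 6 replicate 1.

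On day 14, 2 genes were higher and none lower, against 0.878% and 0.302% of all tested genes, with a median log2 change of 0.13 against -0.01. Creb3l1 rose by 1.12 ± 0.17 (log2 scale, SE; adjusted p = 0.00401 by the edgeR quasi-likelihood test), its largest change on any day, and this call held in all 8 fits with 1 library left out. Sec24d rose by 0.61 ± 0.14 (log2 scale, SE; adjusted p = 0.0367 by the edgeR quasi-likelihood test), and was not called without chow replicate 3 or 4 or without any of the 4 day 14 libraries. Markers of plasma and B cells, cells rich in ER, summed to 64.8, 13.5, 9.01 and 7.77 CPM on day 14. On chow they summed to 27.2, 11.04, 24.2 and 16.7 CPM. Of 8 tested 0 were called, and at these low levels the lack of a call says little. Creb3l1 in the day 14 library with the most plasma and B cell markers was 51.7 CPM, and in the other 3 it was 50.4, 36.7 and 42.1 CPM. In the same order of libraries, adipocyte progenitor markers summed to 3175, 3491, 2089 and 2142 CPM. Adipocyte markers summed to 49981, 56244, 60980 and 64567 CPM. Whether cells of any of these types had a part in the day 14 change of Creb3l1 was not tested. Without chow replicate 4 and day 2 replicate 1, Creb3l1 on day 14 was the only call left among days 2, 6 and 14.

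**Figure D3:**
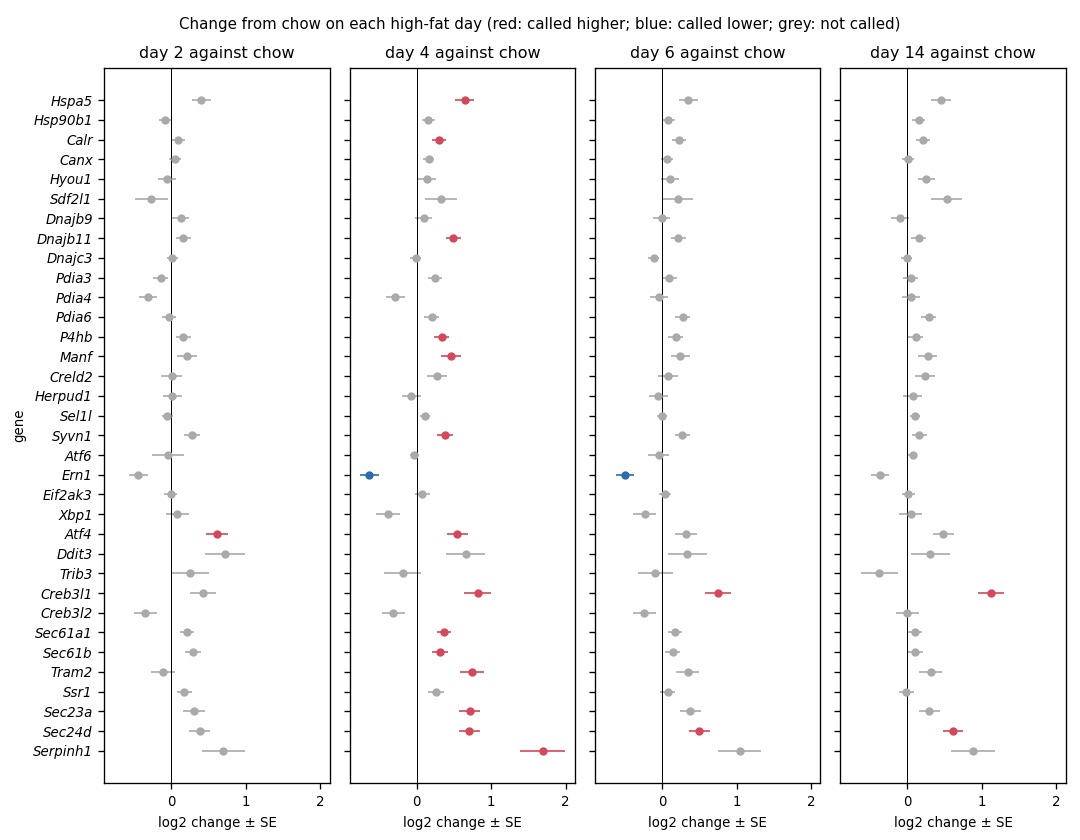
Log2 change from chow with its SE (x axis) of the 34 genes (rows) on days 2, 4, 6 and 14 (panels). Red points passed the test as higher and blue as lower: 1, 14, 2 and 2 genes are red on days 2, 4, 6 and 14, and Ern1 is blue on days 4 and 6.

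Comparisons between high-fat days asked whether day 4 stood above its neighbours in time. On day 4 against day 2, 2 genes were higher and none lower, against 2.14% and 0.256% of all tested genes. Tram2 measured 26.1, 40.98, 41.7 and 35.8 CPM on day 4, against 17.8, 19.5, 20.2 and 20.9 CPM on day 2, with no overlap and a change of 0.85 ± 0.17 (log2 scale, SE; adjusted p = 0.0412 by the edgeR quasi-likelihood test). Pdia3 measured 278, 359, 365 and 288 CPM on day 4, against 219, 247, 245 and 271 CPM on day 2, likewise with no overlap and a change of 0.39 ± 0.10 (log2 scale, SE; adjusted p = 0.0455 by the edgeR quasi-likelihood test). Both calls were lost without any one of day 2 replicates 1, 2 and 3 or day 4 replicates 2, 3 and 4. Without day 4 replicate 1 there were 10 calls, 9 higher and 1 lower, and without day 2 replicate 4 there were 5, all higher.

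On day 6 against day 4, no gene of the 34 and 0.00% of all tested genes were called by edgeR. At an unadjusted p under 0.05 there were 5 of the 34 and 2492 of all tested genes, DESeq2 called 0 of the 34 and limma-voom with sample quality weights called 5, all lower. The median log2 change was -0.10, against 0.00 over all tested genes. Without day 4 replicate 1, edgeR called 2 genes lower, Dnajb11 and Tram2. On day 14 against day 4, 1 gene was lower and none higher, against 4.78% and 4.58% of all tested genes. Dnajb11 measured 54.9, 57.5, 63.6 and 60.3 CPM on day 14, against 61.6, 84.1, 73.9 and 79.6 CPM on day 4, with an overlap at day 4 replicate 1. It fell by 0.34 ± 0.10 on the log2 scale (SE; adjusted p = 0.0418 by the edgeR quasi-likelihood test), a call lost without any one of day 14 replicates 1, 2 and 4 or day 4 replicates 2, 3 and 4. Without day 4 replicate 1 there were 5 calls, all lower: Dnajb11, Sec23a, Sec61a1, Serpinh1 and Tram2.

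The test of any difference among the 5 groups called 10 of the 34 genes, against 19.6% of all tested genes. They were Hspa5, Dnajb11, Pdia6, Ern1, Atf4, Creb3l1, Tram2, Sec23a, Sec24d and Serpinh1. In the 20 fits with 1 library left out, 4 of these held throughout: Creb3l1, Sec24d, Serpinh1 and Tram2. The group with the highest mean was day 4 for 19 of the 34 genes, day 14 for 7, day 2 for 6, chow for 2 and day 6 for 0. Over all tested genes these shares were 30.5%, 13.1%, 16.4%, 32.3% and 7.62%.

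Other genes of the same pathway were counted on day 4 in lists chosen by function, likewise with earlier results known. The counts stand beside 18% of all tested genes higher and 17.3% lower on that day, and the median log2 changes beside -0.02 over all tested genes. Of 32 further COPII, COPI and cargo genes, 14 were higher and 1 lower, with a median log2 change of 0.21. Kdelr3, a receptor that returns escaped ER proteins, measured 16.7 ± 5.20 CPM on day 4 and 7.26 ± 1.03 CPM on chow (SD, n = 4 each; log2 change 1.15 ± 0.20, SE; adjusted p = 0.00120 by the edgeR quasi-likelihood test). Sec13 of the outer COPII coat rose by 0.75 ± 0.14 and Sec16a, which organises ER exit sites, by 0.29 ± 0.06 (log2, SE). Of 29 translocation and glycosylation genes, 9 were higher and 0 lower, with a median of 0.15. They included Ssr2, a partner of Ssr1, with 117 ± 4.43 CPM on day 4 and 84.7 ± 11.3 CPM on chow (SD, n = 4 each; log2 change 0.47 ± 0.11, SE; adjusted p = 0.00350 by the edgeR quasi-likelihood test), and Krtcap2 and Srp19 with 0.44 ± 0.09 and 0.38 ± 0.08.

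Of 34 further folding genes, 9 were higher and 3 lower, against 18% and 17.3% of all tested genes, with a median log2 change of 0.10. Calu, a calcium-binding protein of the secretory pathway, measured 519 ± 114 CPM on day 4 and 276 ± 28.3 CPM on chow (SD, n = 4 each; log2 change 0.91 ± 0.17, SE; adjusted p = 0.00135 by the edgeR quasi-likelihood test), and the cyclophilin Ppic and the J-domain gene Dnajb12 rose by 0.98 ± 0.23 and 0.30 ± 0.07. Of 22 further degradation genes, 5 were higher, a share near the 18% of all tested genes, and 2 were lower, with a median of 0.08. Edem1, which marks misfolded glycoproteins for disposal, measured 237 ± 12.7 CPM on day 4 and 151 ± 21.8 CPM on chow (SD, n = 4 each; log2 change 0.65 ± 0.12, SE; adjusted p = 0.00141 by the edgeR quasi-likelihood test), Faf2 rose by 0.44 ± 0.09 and Derl1 fell by 0.49 ± 0.14 on the log2 scale. Of 37 further stress-signalling and Atf4-target genes, 17 were higher and 1 lower, against the same 18% and 17.3%, with a median of 0.26. Vldlr measured 201 ± 21.03 CPM on day 4 and 96.8 ± 10.2 CPM on chow (SD, n = 4 each; log2 change 1.05 ± 0.15, SE; adjusted p = 0.000655 by the edgeR quasi-likelihood test), and Creb3 and the alanyl-tRNA synthetase gene Aars rose by 0.77 ± 0.13 and 0.51 ± 0.12.

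With scaling by library size only, the counts on day 4 were 7 higher and 1 lower for the COPII, COPI and cargo list, 5 and 2 for translocation and glycosylation, 4 and 4 for folding, 2 and 6 for degradation, and 7 and 4 for stress signalling. Without chow replicate 4 and day 2 replicate 1 they were 10 and 1, 8 and 0, 6 and 2, 2 and 3, and 10 and 0, in the same order of lists. Without all 4 libraries that stood apart they were 12 and 1, 8 and 0, 8 and 3, 2 and 3, and 10 and 0. The 18% and 17.3% of all tested genes belong to the main fit, and the shares in these other fits are not given here. With scaling by library size only, the median log2 change over all tested genes was -0.13. On day 14 the COPII, COPI and cargo list had 1 gene higher, and the other 4 lists had 0 calls by edgeR. Of all tested genes, 0.878% were higher and 0.302% lower on that day.

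Collagen genes, whose products Serpinh1 chaperones, were also high on day 4. Of 13 fibrillar and network collagens, 12 were higher on day 4 and 0 lower, with a median log2 change of 1.20. Of 14 collagen processing enzymes 7 were higher and 1 lower, with a median of 0.35. Of all tested genes, 18% were higher and 17.3% lower, with a median of -0.02. Col6a3 measured 622 ± 250.1 CPM on day 4 and 164 ± 14.1 CPM on chow (SD, n = 4 each; log2 change 1.92 ± 0.32, SE; adjusted p = 0.00104 by the edgeR quasi-likelihood test), and Col6a2 and Col5a1 rose by 1.78 ± 0.29 and 1.21 ± 0.20. The prolyl hydroxylase P3h1, its partner Crtap and the procollagen protease Adamts2 rose by 0.76 ± 0.13, 0.47 ± 0.11 and 0.90 ± 0.18. Without chow replicate 4 and day 2 replicate 1, 11 collagens were higher and 0 lower, and 5 processing enzymes were higher and 1 lower. Without all 4 libraries that stood apart, the counts were 12 and 0 for collagens and 7 and 0 for processing enzymes. Summed over the 13 collagens, day 4 libraries held 10405, 20755, 19605 and 16949.7 CPM, against 8526, 7079, 7398 and 6999 CPM in chow libraries. Day 2 sums were 7441 to 10415 CPM, day 6 sums 9951 to 18361 CPM and day 14 sums 10631 to 11709 CPM. Day 4 replicate 1, the lowest of its day for Serpinh1, Tram2, Creb3l1 and Manf among others, was also the lowest for collagens. The same library was the highest of its day for Atf4, Ddit3, Xbp1, Ern1, Atf6, Herpud1, Dnajb9 and Dnajc3.

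Markers of other cells differed from chow on day 4 too, when 18% of all tested genes were higher and 17.3% lower. Dividing-cell markers summed to 117, 715, 586 and 614 CPM on day 4, against 62.1 to 89.4 CPM on chow, with 12 of 12 called higher. They summed to 69.9 to 116 CPM on day 2, 93.6 to 429 CPM on day 6 and 76.3 to 123 CPM on day 14. Endothelial markers summed to 1136 CPM in day 4 replicate 1 and to 1781 to 2105 CPM in the other day 4 libraries, against 977 to 1286 CPM on chow, with 5 of 10 called higher. The count was 2 with scaling by library size only, 2 without chow replicate 4 and day 2 replicate 1, and 6 without all 4 libraries that stood apart. Mesothelial markers summed to 84.3 to 251 CPM on day 4, against 412 to 539 CPM on chow, with 11 of 11 called lower. Of 10 tested adipocyte progenitor markers 2 were higher and 3 lower, not far from the shares of all tested genes. Their sums were 1903 to 2775 CPM on day 4 and 2347 to 2826 CPM on chow. Adipocyte markers summed to 56239, 32404, 36530 and 33297 CPM on day 4, against 51251, 56376, 65658 and 37871 CPM on chow, so that day 4 replicates 2, 3 and 4 lay below every chow library and replicate 1 did not. Of the 10 adipocyte markers 1 was higher and 2 lower, against 18% and 17.3% of all tested genes, and without all 4 libraries that stood apart 1 was higher and 5 lower. No gene of these 5 lists was at 0 in a whole group. Their part in the day 4 changes was not tested.

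Markers of plasma and B cells, acinar cells, macrophages, mast cells and ductal epithelium were also counted on day 4. Of all tested genes, 18% were higher and 17.3% lower on that day. Whether such cells had a part in the day 4 changes was not tested. Of 8 tested plasma and B cell markers 0 were called on day 4, with sums of 4.90 to 17.9 CPM on day 4 and 11.04 to 27.2 CPM on chow. At these low levels, the lack of a call says little. Of the pancreatic acinar markers 1, Cela1, passed the filter and was higher, with sums of 19.1 to 33.2 CPM on day 4 and 12.3 to 18.8 CPM on chow, while the defining gene Pnlip was at 0 in all 8 libraries. The Cela1 call was lost with scaling by library size only, without chow replicate 4 and day 2 replicate 1, and in 4 of 8 fits with 1 library left out. Macrophage markers had 0 of 12 called, with sums of 903 to 1657 CPM on day 4 and 1435 to 1686 CPM on chow. Mast cell markers had 0 of 6 called, with sums of 32.7 to 51.04 CPM on day 4 and 39.2 to 61.2 CPM on chow, and without all 4 libraries that stood apart 2 were called lower. Both tested markers of epididymis and ductal epithelium were lower on day 4, and neither was called without chow replicate 4 and day 2 replicate 1.

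**Figure D4:**
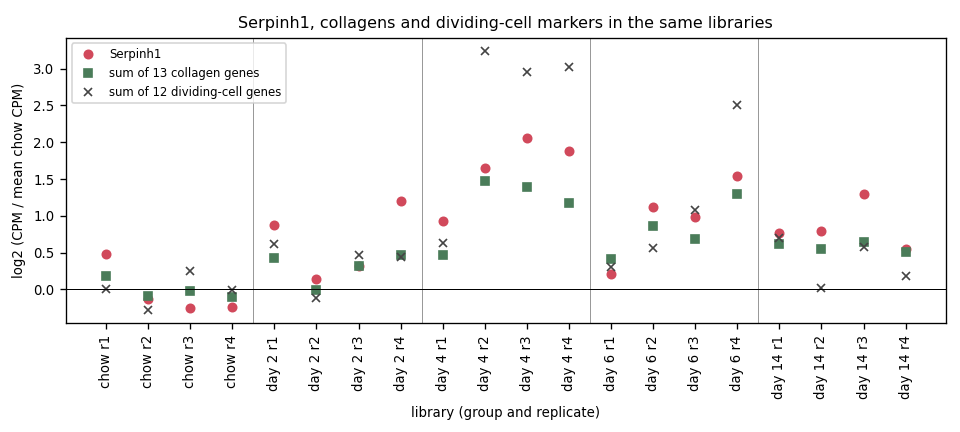
Log2 ratio to the mean chow CPM (y axis) of Serpinh1, of the sum of 13 collagen genes and of the sum of 12 dividing-cell genes in each of the 20 libraries (x axis). All 3 are higher in day 4 replicates 2, 3 and 4 than in day 4 replicate 1, whose collagen sum was 10405 CPM.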

How the data were processed

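RNA was isolated from the fat pads with a column kit and made into libraries with a TruSeq RNA kit, per the labels' protocols. The authors deposited whole-number read counts per Ensembl gene ID, not normalized, for 20 libraries (1916829 to 38832429 counts each). STAR, featureCounts, CASAVA, R 3.0 and limma appear, without their roles, per the submitters' processing notes. Genome build, annotation and strand setting are not given in the sources used here. Symbols were matched for 37607 of 39179 IDs, and IDs without one held 0.139% of counts.

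Counts were analysed in R 4.3.3 with edgeR 4.0.16. The filterByExpr function (minimum count 10, minimum total 15) left 15254 genes with at least 99.5% of each library's counts, and TMM factors were 0.942 to 1.17. All 20 libraries entered 1 robust quasi-likelihood fit by group alone, with 15 residual degrees of freedom. A gene was called at a Benjamini-Hochberg adjusted p under 0.05, taken over all 15254 genes in each comparison. SEs of log2 changes were derived from the test's p-value. CPM use the TMM-scaled totals, and lengths per kilobase are exon unions from GENCODE. Depth limits the precision of the genes with few counts.

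Alternatives were other scalings and filters, DESeq2 1.42.0, limma-voom 3.58.1, fits of the compared groups alone, a replicate block, and each library left out. The genes and lists were chosen with earlier results of these data known. Genes called against chow, and the 2 most expressed others of each role, are given in every library. From each pathway list, the 3 called genes with the smallest adjusted p on day 4 are named.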

Additional observations from a re-analysis of the deposited data

Results flagged for a closer look

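A library was flagged where its gap to the nearest library of its group, divided by the range of the group, exceeded Dixon's 95% critical value for 4 samples. Of 170 gene and group combinations, 16 were flagged (9.41%). The critical value flags about 1 in 20 for independent, normally distributed values. The genes here share the same libraries, so the flagged share cannot show an excess over that rate. In the chow group, Serpinh1 was high in replicate 1 at 557 CPM against 335 to 367 CPM in the others, as was Syvn1 at 87.8 CPM against 72.1 to 73.9 CPM, while Herpud1 was low there at 45.8 CPM. Chow replicate 2 was high for Canx at 285 CPM, Pdia6 at 184 CPM and Sel1l at 174 CPM.

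On day 2, Calr was low in replicate 1, the smallest library, at 382 CPM against 436 to 440.5 CPM, and Hyou1 was high in replicate 4 at 80.8 CPM. On day 4, replicate 1 was low for Manf at 36.9 CPM against 47.3 to 48.4 CPM and for Sec61a1 at 139.7 CPM against 171 to 175 CPM. On day 6, replicate 4 was high for Canx at 289 CPM and low for Dnajb9 at 34.9 CPM, and replicate 1 was high for Dnajc3 at 147 CPM and low for Sec61b at 33.2 CPM. On day 14, Sdf2l1 was low in replicate 4 at 8.40 CPM and Sec61a1 in replicate 1 at 130.03 CPM.

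Between high-fat days, the test of the difference itself was passed by 3 changes. These were Pdia3 at 0.39 and Tram2 at 0.85 on day 4 against day 2, and Dnajb11 at -0.34 on day 14 against day 4 (log2 scale; adjusted p = 0.0455, 0.0412 and 0.0418 by the edgeR quasi-likelihood test).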

How the results depend on the processing

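On day 4 against chow, 15 of the 34 genes were called, and the count was 11 with scaling by library size only, 16 with DESeq2, 21 with limma-voom with sample quality weights and 13 to 17 with 1 library left out. The other comparisons had few calls and moved more. With scaling by library size only there were 2 calls on day 2, 1 on day 6, 1 on day 14, and 0 for day 4 against day 2 and day 14 against day 4. With DESeq2 size factors or a stricter filter there was 1 for day 4 against day 2. With no filter there was 1 on day 6, and 0 for day 4 against day 2 and day 14 against day 4. With only the groups compared there were 0 on day 2, 0 on day 6, 1 on day 14 and 0 for day 4 against day 2. DESeq2 called 3 on day 2, 4 on day 14, 4 for day 4 against day 2, 2 for day 14 against day 4 and 16 for any difference. Limma-voom with quality weights called 17 for day 4 against day 2, 5 for day 6 against day 4, 13 for day 14 against day 4 and 22 for any difference. The cause was not tested.

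With 1 library left out, counts were 0 to 4 on day 2, 0 to 3 on day 6, 1 to 2 on day 14, 0 to 10 for day 4 against day 2, 0 to 2 for day 6 against day 4, 0 to 5 for day 14 against day 4 and 4 to 14 for any difference (4 without chow replicate 4, 5 without day 4 replicate 4, and 6 in fits lacking chow replicate 3, day 4 replicate 2 or day 4 replicate 3). Without chow replicate 4 and day 2 replicate 1 there were 0 on days 2 and 6, 1 on day 14, 0 for day 4 against day 2 and day 14 against day 4, and 2 for any difference. Without these, day 4 replicate 1 and day 6 replicate 4 there were 0 on days 2 and 6, 1 on day 14, 6 for day 4 against day 2, 3 for day 6 against day 4 and 7 for day 14 against day 4.

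Same-numbered libraries deviated together with correlations of -0.19 to 0.52 over 40 pairs, 12 of them above 0.1. Of 20 libraries, 10 correlated best with their own number. Whether the numbers pair the samples was not tested, and the main fit used no pairing. The fit with the replicate block called 16 genes on day 4, 3 for day 14 against day 4 and 12 for any difference. Over 4284 recomputed changes of single genes, called or not, 0 called ones reversed, and 198 uncalled ones changed sign. A call was lost in 106 and gained in 110. Only changes called in the main fit can lose a call, and most of the 4284 were not called. The 106 are therefore not to be read as a share of 4284. Depth limits genes with few counts, such as Sdf2l1 with 8 in its smallest library.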
